A study of Homo sapiens with 6 samples.

Results

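Tetraspanins and uroplakins are surface and vesicle membrane proteins, and their genes were taken from the expression table by name. The rule was a protein-coding gene named TSPAN with a number, the tetraspanin genes CD9, CD37, CD53, CD63, CD81, CD82 and CD151, or one of the uroplakin genes UPK1A, UPK1B, UPK2, UPK3A and UPK3B. It found 34 genes of the 40488 Ensembl genes in the table, with none of the 34 named genes missing. The cells were SCC90, an established line from an HPV16-positive squamous cell carcinoma of the base of the tongue. They were transfected with a ΔNp63 siRNA (siDNp63, 3 libraries) or with a scrambled siRNA (siCtrl, 3 libraries), both with Lipofectamine RNAiMAX. RNA was taken 72 h later, and the sample labels give 10 nM of ΔNp63 siRNA where the paper's methods give a higher dose. A single line from 1 tumor was used, and the labels do not say whether the numbered replicates were separate cultures, so the p-values rest on the scatter among the libraries of a group, and this scatter may be technical.

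Tetraspanins cross the membrane 4 times and carry a large outer loop. They gather partner proteins such as integrins, immunoglobulin superfamily proteins and proteases into membrane microdomains, and several are sorted into endosomes and extracellular vesicles. A subgroup named TspanC8, for the cysteines of the large loop, carries the protease ADAM10 from the endoplasmic reticulum to the cell surface. The uroplakins UPK1A and UPK1B are themselves tetraspanins, and they pair with the single-pass uroplakins UPK2 and UPK3A to form the plaques of the bladder lining.

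The knockdown and the libraries were checked first. TP63, which encodes p63, had a level of 118.9 ± 5.55 TPM in siDNp63 and 361.7 ± 7.74 TPM in siCtrl (SD, n = 3 each), where TPM is scaled for transcript length and library total. Its log2 fold change was −1.52 (adjusted p = 7.59e-07, edgeR quasi-likelihood test with Benjamini-Hochberg adjustment). Expected counts per library summed to between 35716277 and 52598831. Normalized counts below are expected counts after TMM scaling, positive log2 fold changes stand for genes with more RNA in siDNp63, and a gene was called when its edgeR adjusted p, over the 17257 genes tested, was under 0.05. On the second principal component siDNp63 replicate 1 scored 39.1 where the other siDNp63 libraries scored −25.6 and −24.8, so values that moved most with it are also given without it. Of the squamous markers, KRT6A had 3694 ± 125 TPM in siDNp63 and 3071 ± 45.4 TPM in siCtrl, whereas the basal keratins KRT5 and KRT14 were low, with KRT5 at 5.43 ± 1.68 and 7.08 ± 1.08 TPM and KRT14 at 1.49 ± 0.0949 and 0.524 ± 0.223 TPM in siDNp63 and siCtrl. Markers of other cell types were low. Their sums did not overlap between the groups for leukocytes and endothelium, whereas those for fibroblasts overlapped. The 11 leukocyte markers summed to 12.4 to 13.0 TPM in siDNp63 and 16.1 to 17.7 TPM in siCtrl with MS4A1 at 0 counts. The 6 fibroblast markers summed to 4.62 to 8.11 TPM in siDNp63 and 7.47 to 9.54 TPM in siCtrl with PDGFRB at 0. The 6 endothelial markers summed to 11.2 to 13.8 TPM in siDNp63 and 2.62 to 3.09 TPM in siCtrl, with CDH5 at 0.0272 and 0.0657 TPM. All 3 endothelial markers that could be tested rose, beside 18.4% of all genes. KDR had 7.98 ± 0.834 TPM in siDNp63 and 1.63 ± 0.106 TPM in siCtrl (log2 fold change 2.36), PECAM1 had 3.25 ± 0.660 and 0.614 ± 0.0679 TPM (2.39) and VWF had 0.992 ± 0.187 and 0.463 ± 0.150 TPM (0.88). In RNA from a whole culture, fewer cells that express a gene and less RNA per cell cannot be told apart.

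The sequences before the start sites of 4 members are shown because these members were among the strongest to change in each direction. They are RefSeq sequences on GRCh38.p14, printed 5′ to 3′ on the strand of the gene in lower case. Each was cut where an annotated exon of any gene was first met in its window. Of several windows of a gene, that with the longest such stretch is shown. The sequences of UPK1B and TSPAN5 border the start of the annotated gene. Those of TSPAN8 (annotated from 71125085 to 71441898) and TSPAN31 (57738013 to 57750219) lie inside the annotated gene, before an internal start site. UPK1B lies at chr3:119173348-119173516 (plus strand, 169 bases), TSPAN8 at chr12:71158000-71158249 (minus strand, 250 bases), TSPAN5 at chr4:98658612-98658861 (minus strand, 250 bases) and TSPAN31 at chr12:57744789-57745022 (plus strand, 234 bases).
UPK1B: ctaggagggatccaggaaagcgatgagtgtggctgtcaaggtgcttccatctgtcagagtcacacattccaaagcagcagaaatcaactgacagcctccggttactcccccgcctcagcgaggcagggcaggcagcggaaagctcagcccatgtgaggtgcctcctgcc
TSPAN8: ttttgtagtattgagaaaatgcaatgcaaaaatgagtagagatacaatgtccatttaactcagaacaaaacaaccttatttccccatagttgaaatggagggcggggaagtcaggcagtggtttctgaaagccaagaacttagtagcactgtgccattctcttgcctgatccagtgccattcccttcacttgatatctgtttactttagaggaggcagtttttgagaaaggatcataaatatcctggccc
TSPAN5: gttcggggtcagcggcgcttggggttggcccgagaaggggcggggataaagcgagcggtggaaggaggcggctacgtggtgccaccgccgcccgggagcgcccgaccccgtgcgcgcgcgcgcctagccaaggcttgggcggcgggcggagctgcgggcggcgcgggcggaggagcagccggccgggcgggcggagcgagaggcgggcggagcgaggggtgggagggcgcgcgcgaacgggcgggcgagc
TSPAN31: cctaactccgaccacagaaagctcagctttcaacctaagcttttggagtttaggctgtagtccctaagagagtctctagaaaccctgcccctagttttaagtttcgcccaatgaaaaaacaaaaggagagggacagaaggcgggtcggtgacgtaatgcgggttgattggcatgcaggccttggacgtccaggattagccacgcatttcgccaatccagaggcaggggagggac

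The table of start sites held 24 of the 34 members, with 44 windows of 250 bases between them. The core AGGAAG, bound by epithelial ETS factors, was searched on both strands, and capitals would have marked it in the sequences shown, none of which held it. It was found in 19 of the 44 windows (43.2%), in 11 members, and in 28.7% of the 35116 windows of all genes. Several windows of a gene can overlap, and a match is a description of the letters and not a binding site.

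Levels differed widely among the members. Being scaled for length, TPM can be compared between genes. CD9, a tetraspanin found on most epithelial cells, led with 949.3 ± 4.34 TPM in siDNp63 and 698.2 ± 8.66 TPM in siCtrl. CD63, the tetraspanin of late endosomes and lysosomes, followed with 517.8 ± 47.3 TPM in siDNp63 and 422.9 ± 27.5 TPM in siCtrl. TSPAN3 was next, at 314.5 ± 7.50 and 313.8 ± 4.67 TPM in siDNp63 and siCtrl. These genes stood in the same order in all 6 libraries. TSPAN13, CD81 and TSPAN18 also averaged over 100 TPM, with ranges over the 6 libraries of 122.7 to 141.1, 104.1 to 126.0 and 97.0 to 121.3 TPM. The range of CD81 overlapped both others, so its place in the order is not fixed by these data, whereas TSPAN13 and TSPAN18 did not overlap. In all, 6 members averaged over 100 TPM over the 6 libraries, 12 lay between 10 and 100 TPM, 7 between 1 and 10 TPM, and 9 at or under 1 TPM. The summed TPM of the 34 members was 2591, 2577 and 2534 in siDNp63 replicates 1, 2 and 3, against 2256, 2185 and 2198 in siCtrl replicates 1, 2 and 3. The groups of this sum did not overlap, and CD9 made up 37.0 ± 0.373% of it in siDNp63 and 31.6 ± 0.899% in siCtrl.

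**Figure D1:**
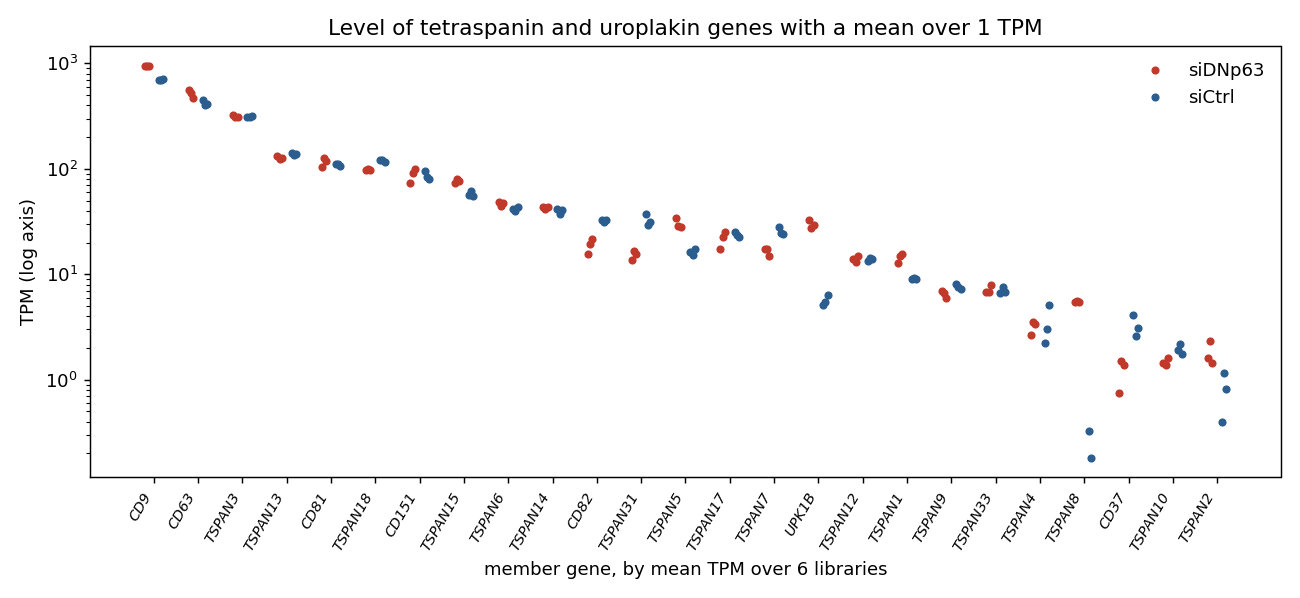
Level in TPM (log axis) of the 25 members with a mean over 1 TPM, with 1 point for each of the 3 siDNp63 libraries (red, left) and 3 siCtrl libraries (blue, right), ordered by their mean. CD9, CD63 and TSPAN3 stand above the rest, and the siDNp63 and siCtrl points lie far apart for UPK1B and TSPAN8, whose siCtrl replicate 3 value of 0 cannot be drawn.

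Of the 34 members, 26 had enough counts to be tested. After ΔNp63 silencing 9 of them rose and 6 fell, while the other 11 did not pass. Over all genes tested, 18.4% rose and 15.2% fell, against 34.6% and 23.1% of the tested members, so that 57.7% of these members and 33.6% of all genes were called in either direction. The median log2 fold change was 0.07 over the 26 members and −0.02 over all genes, and the median absolute value was 0.30 over the members and 0.21 over all genes. The median tested member had 1021 normalized counts and the median tested gene 699. With a log2 fold change over 1 in addition, 3 members rose (UPK1B, TSPAN8 and TSPAN2; 2.35% of all genes) and 1 fell (CD37; 1.71% of all genes). Values of siDNp63 and siCtrl did not overlap for 17 tested members, 10 higher and 7 lower in siDNp63, while 49.4% of all genes did not overlap, 24.7% higher and 24.7% lower.

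**Figure D2:**
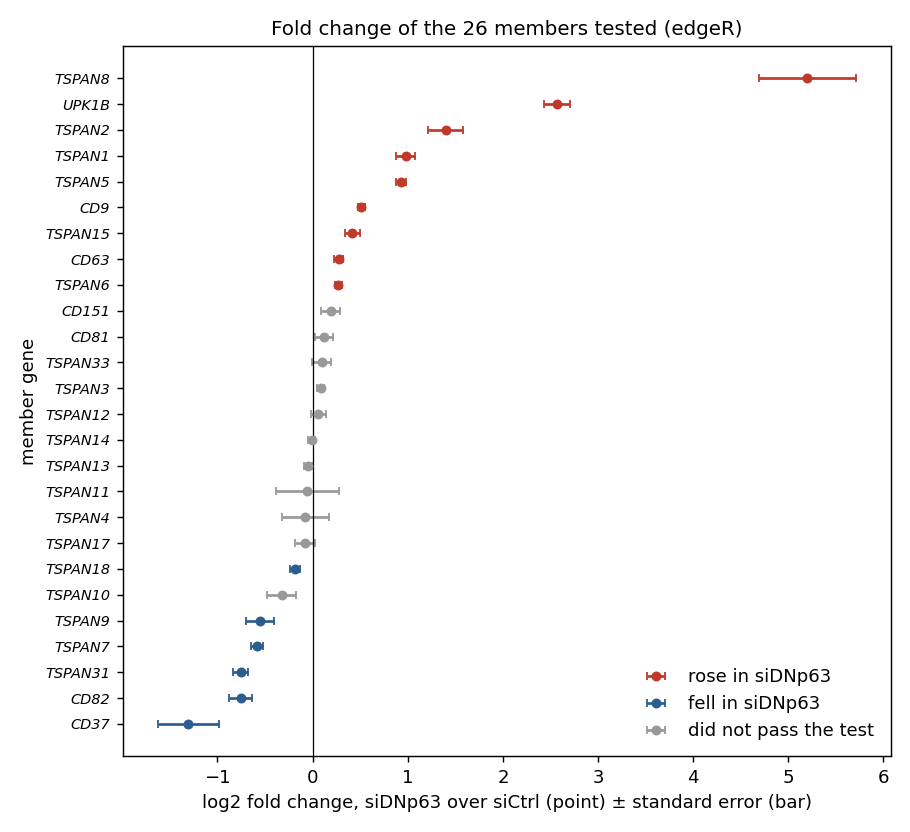
Log2 fold change of siDNp63 over siCtrl (points) with its standard error (bars) for the 26 members tested with edgeR, ordered from the largest rise at the top to the largest fall at the bottom. The 9 members that rose are red, the 6 that fell are blue and the 11 that did not pass the test are grey.

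Among the uroplakins, UPK1B rose and the 4 other genes were near or at 0 in both groups. UPK1B (ENSG00000114638; chromosome 3, 119173517 to 119205143) had 1029, 867 and 881 normalized counts in siDNp63 replicates 1, 2 and 3, against 128, 176 and 164 in siCtrl replicates 1, 2 and 3. Every siDNp63 library was above every siCtrl library, and the means differed 5.93-fold (log2 fold change 2.57 ± 0.13 standard error (SE), edgeR adjusted p = 8.96e-06). In TPM it had 29.7 ± 2.67 in siDNp63 and 5.64 ± 0.692 in siCtrl (SD, n = 3 each). Its fitted log2 fold change lay between 2.21 and 2.66 under every alternative tried.

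The other uroplakins were not detected above a few counts. UPK3A, the usual partner of UPK1B in bladder, had 0 counts in all 6 libraries. UPK1A had 12 counts summed over the siDNp63 libraries and 10 over the siCtrl libraries, UPK2 had 12 and 15, and UPK3B had 2 and 0 after rounding. None of these 4 genes passed the filter, and differences between the groups were not detectable at these counts. UPK3B shares near-identical sequence with the pseudogene UPK3BP1, so reads may be divided between them. The related gene UPK3BL1, which the rule does not include, had 106 ± 13.0 TPM in siDNp63 and 59.3 ± 4.46 TPM in siCtrl (log2 fold change 0.92, edgeR adjusted p = 1.86e-04), and its near-identical neighbor UPK3BL2 can share its reads.

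A list of 22 genes of urothelial differentiation put UPK1B beside other genes of the bladder lining. Of the 20 tested, 12 rose and 1 fell, beside 18.4% and 15.2% of all genes, with a median log2 fold change of 0.76. The list was chosen with earlier results of these data known, so these counts are a description. The transcription factors GRHL3 (log2 fold change 1.55), ELF3 (1.26), KLF5 (0.73), FOXA1 (1.37) and TBX3 (0.78), the keratins KRT8 (0.74) and KRT18 (0.84) and the prostate stem cell antigen gene PSCA (1.70) were among those that rose. SNX31, a sorting nexin of the bladder lining, fell (−1.58), with 3.27 ± 0.798 TPM in siDNp63 and 8.20 ± 1.67 TPM in siCtrl. KRT20, a keratin of the outermost bladder cells, had 0 counts in all libraries, and the urothelial factor GATA3 had 0.170 ± 0.134 TPM in siDNp63 and 0.213 ± 0.123 TPM in siCtrl and did not pass the test.

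TSPAN8, a tetraspanin of gastrointestinal epithelium and of vesicles from tumor cells, had the largest fold change of the members. Its raw counts were 118, 198 and 169 in siDNp63 replicates 1, 2 and 3, against 10, 3 and 0 in siCtrl replicates 1, 2 and 3. It was thus present in all siDNp63 libraries and at a handful of reads or none in siCtrl. Summed over libraries and scaled to their size, 485 counts in siDNp63 stood against 13 in siCtrl, a ratio of 37.4 with an exact 95% interval of 21.6 to 70.7, which covers counting error only. TSPAN8 passed the filter through its siDNp63 libraries alone, so its being tested depended on the same difference. The fitted log2 fold change was 5.20 (standard error 0.51, edgeR adjusted p = 1.86e-04), and with so few counts in siCtrl the size of this value depends on the fit. It was 2.48 on the log2(TPM + 1) scale, where low values are compressed, and 4.69 to 6.52 with 1 library left out, the highest value being that without siCtrl replicate 1. In TPM the gene remained a minor member, at 5.48 ± 0.114 in siDNp63.

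TSPAN1 and TSPAN2, on chromosome 1, also rose. TSPAN1, an epithelial tetraspanin raised in several carcinomas, had 351, 376 and 370.0 normalized counts in siDNp63 replicates 1, 2 and 3, against 182, 174 and 202 in siCtrl replicates 1, 2 and 3, with no overlap (log2 fold change 0.98 ± 0.10 SE, edgeR adjusted p = 2.02e-04). Its transcript length as implied by counts and TPM was 1.26, 1.15 and 1.11 of the siCtrl mean in siDNp63 replicates 1, 2 and 3. With these lengths in the fit the log2 fold change of TSPAN1 was 0.73 (edgeR adjusted p = 0.00434), and on the log2(TPM + 1) scale it was 0.61 (limma adjusted p = 0.00491). TSPAN2, best known from the oligodendrocytes of the nervous system, had 79.3, 98.4 and 93.5 normalized counts in siDNp63 replicates 1, 2 and 3, against 33.8, 38.5 and 30.4 in siCtrl replicates 1, 2 and 3 (log2 fold change 1.40 ± 0.18 SE, edgeR adjusted p = 7.71e-04). The groups did not overlap in counts. Its transcript length as implied by counts and TPM ranged from 0.638 to 1.66 of the siCtrl mean within the siCtrl libraries alone, and with these lengths in the fit the log2 fold change was 1.30 with an edgeR adjusted p = 0.0559, which ends the call.

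**Figure D3:**
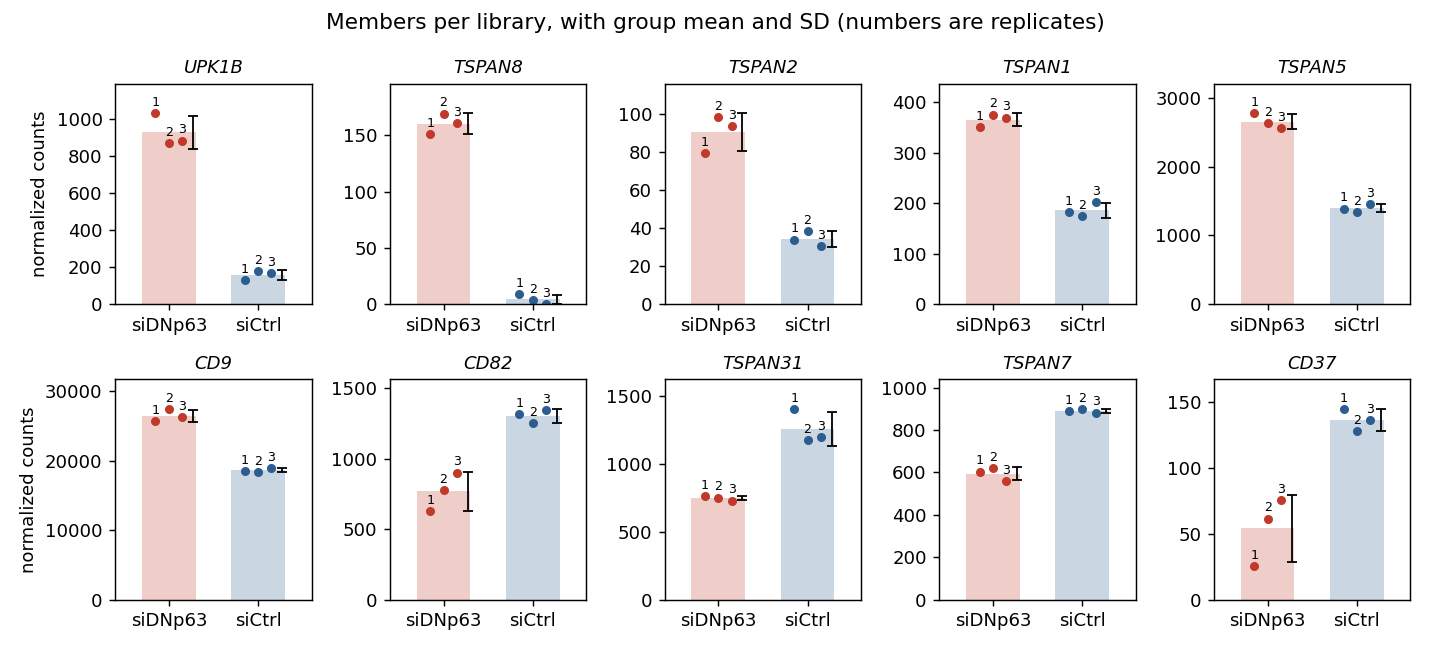
TMM-normalized counts of 10 members in siDNp63 (red, left) and siCtrl (blue, right), with a point for each library numbered by replicate, bars from 0 to the group mean and the SD beside the points. The 2 groups do not overlap in any of the 10 panels, and siDNp63 replicate 1 is the lowest library for CD82 and CD37.

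Of the tetraspanins known for their ties to integrins and adhesion (CD9, CD81, CD82 and CD151), CD9 rose and CD82 fell. CD9 had 25719, 27439 and 26271 normalized counts in siDNp63 replicates 1, 2 and 3, against 18490, 18371 and 18941 in siCtrl replicates 1, 2 and 3. Although the fold was only 1.42, the groups were far apart for their spread (log2 fold change 0.51 ± 0.04 SE, edgeR adjusted p = 4.25e-05). CD82, also named KAI1 and known as a suppressor of metastasis, had 628, 777 and 902 normalized counts in siDNp63 replicates 1, 2 and 3, against 1318, 1250 and 1345 in siCtrl replicates 1, 2 and 3. All siDNp63 libraries were below all siCtrl libraries (log2 fold change −0.76 ± 0.12 SE, edgeR adjusted p = 0.00191), and without siDNp63 replicate 1 the log2 fold change was −0.63. The TPM of CD9 was 61.3, 49.5 and 44.1 times that of CD82 in siDNp63 replicates 1, 2 and 3, against 21.1, 22.2 and 21.4 times in siCtrl replicates 1, 2 and 3. The exact permutation test of this ratio gave p = 0.1, two-sided, the smallest that 3 against 3 libraries allow, and p = 0.115 adjusted over the 15 sums, shares and ratios computed.

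CD81 and CD151 did not pass the test on all 6 libraries. CD81, a receptor of hepatitis C virus and part of the B cell coreceptor, had 2004, 2635 and 2464 normalized counts in siDNp63 replicates 1, 2 and 3, against 2180, 2242 and 2128 in siCtrl replicates 1, 2 and 3 (log2 fold change 0.12, edgeR adjusted p = 0.365). CD151, which binds laminin-binding integrins and takes part in hemidesmosomes, had 2384, 3168 and 3151 normalized counts in siDNp63 replicates 1, 2 and 3, against 2631, 2591 and 2428 in siCtrl replicates 1, 2 and 3 (log2 fold change 0.19, edgeR adjusted p = 0.207). In both genes siDNp63 replicate 1 was below all siCtrl libraries and replicates 2 and 3 were above all of them. Without siDNp63 replicate 1 both were called higher, CD81 with a log2 fold change of 0.23 (edgeR adjusted p = 0.00458) and CD151 with 0.31 (edgeR adjusted p = 8.85e-04). CD151 shares 257 of its 3894 exon bases with POLR2L on the opposite strand, so CD151 reads there cannot be told apart from POLR2L reads. POLR2L had 202 ± 47.8 normalized counts in siDNp63 and 272 ± 11.2 in siCtrl.

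The siDNp63 replicate 1 library differed from replicates 2 and 3 in a way that followed base composition. Over the 26 tested members, Spearman's correlation between the mean GC content of a gene's protein-coding transcripts and the log2 difference of replicate 1 from the mean of replicates 2 and 3 was −0.61, and it was −0.53 over the 14370 genes with a value. These are descriptions across genes of the same 3 libraries. CD82 (59.2% GC) was lower by 0.41 in replicate 1 on this log2 scale, CD151 (62.1% GC) by 0.41, CD81 (59.2% GC) by 0.35 and TSPAN17 (59.1% GC) by 0.39, whereas TSPAN5 (46.5% GC) differed by 0.10 and UPK1B (47.1% GC) by 0.24 in the other direction. Other members departed from this trend. TSPAN10 (66.0% GC) was lower by only 0.03 in replicate 1, TSPAN11 (56.7% GC) was higher by 0.43 and TSPAN2 (45.0% GC) was lower by 0.27. The part of GC content in the group differences was not tested.

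**Figure D4:**
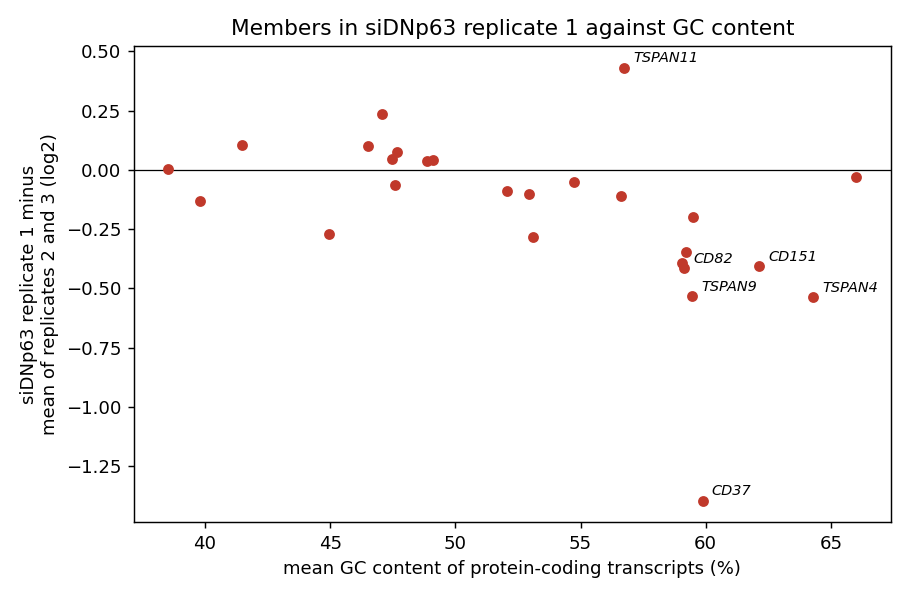
Log2 difference of siDNp63 replicate 1 from the mean of siDNp63 replicates 2 and 3 (vertical axis) against the mean GC content of protein-coding transcripts in percent (horizontal axis), with 1 point for each of the 26 tested members. Members with a higher GC content tend to lie below 0, and CD37 lies lowest at −1.40.

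CD63 rose by a smaller fold. It had 6707, 7536 and 6896 normalized counts in siDNp63 replicates 1, 2 and 3, against 5927, 5785 and 5793 in siCtrl replicates 1, 2 and 3, with no overlap (log2 fold change 0.27 ± 0.05 SE, edgeR adjusted p = 0.00414). Genes of vesicle formation and release, among which CD63 is a standard marker protein, were called about as often as all genes. Of 22 such genes tested, 5 rose and 3 fell, beside 18.4% and 15.2% of all genes, with a median log2 fold change of −0.02. The ATPase gene VPS4B (0.63), which recycles the ESCRT machinery, and SYTL4 (0.58), a partner of RAB27 in secretion, rose, the call of SYTL4 ending on the log2(TPM + 1) scale (0.42, limma adjusted p = 0.0757), while VPS4A (−0.31) and the lysosomal membrane gene LAMP2 (−0.29) fell.

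In the TspanC8 subgroup, TSPAN5 and TSPAN15 rose and none fell. TSPAN5 had 2784, 2636 and 2561 normalized counts in siDNp63 replicates 1, 2 and 3, against 1393, 1337 and 1457 in siCtrl replicates 1, 2 and 3. The lowest siDNp63 library stood well above the highest siCtrl library (log2 fold change 0.93 ± 0.05 SE, edgeR adjusted p = 1.14e-05). TSPAN15, which directs ADAM10 toward N-cadherin, had 1655, 2048 and 1982 normalized counts in siDNp63 replicates 1, 2 and 3, against 1394, 1462 and 1404 in siCtrl replicates 1, 2 and 3 (log2 fold change 0.42 ± 0.08 SE, edgeR adjusted p = 0.00519). The other 4 did not pass the test, with log2 fold changes of −0.01 for TSPAN14 (standard error 0.04), −0.08 for TSPAN17, 0.09 for TSPAN33 and −0.33 for TSPAN10.

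In TPM the sum of the subgroup and the share of TSPAN5 in it were higher in siDNp63. The 6 genes summed to 177, 182 and 183 TPM in siDNp63 replicates 1, 2 and 3, against 148, 147 and 144 TPM in siCtrl replicates 1, 2 and 3. TSPAN5 made up 19.5%, 15.9% and 15.3% of this sum in siDNp63 replicates 1, 2 and 3, against 10.98%, 10.3% and 12.1% in siCtrl replicates 1, 2 and 3. TSPAN15 was the leading member in every library, with 41.4%, 44.2% and 42.0% in siDNp63 replicates 1, 2 and 3, against 38.0%, 42.1% and 38.1% in siCtrl replicates 1, 2 and 3, while the share of TSPAN17 was 12.1 ± 1.98% in siDNp63 and 16.3 ± 0.811% in siCtrl. The exact permutation test of the TSPAN5 share gave p = 0.1, two-sided, the smallest possible, that of TSPAN17 the same, and that of TSPAN15 p = 0.3 (adjusted p = 0.115, 0.115 and 0.321 over the 15 measures).

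**Figure D5:**
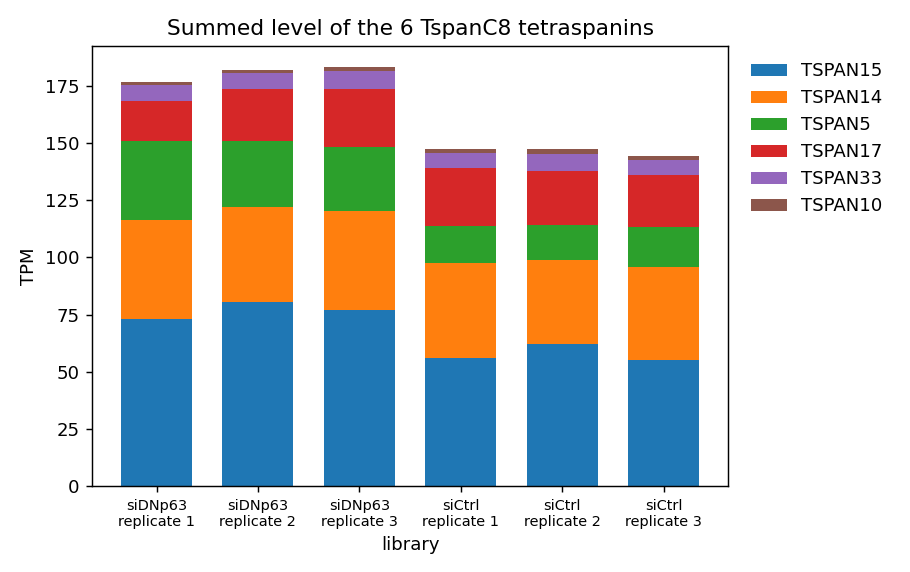
Stacked TPM of the 6 TspanC8 tetraspanins in each of the 3 siDNp63 libraries (left) and 3 siCtrl libraries (right), with bar height as the sum. The sum lies between 177 and 183 TPM in siDNp63 and between 144 and 148 TPM in siCtrl, and the TSPAN5 segment is larger in every siDNp63 library.

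ADAM10, the protease these tetraspanins carry, had 495.5 ± 45.2 TPM in siDNp63 and 477.7 ± 27.02 TPM in siCtrl and did not pass the test (log2 fold change 0.11, edgeR adjusted p = 0.134), though it did without siDNp63 replicate 2 (0.16, edgeR adjusted p = 0.0419). A list of ADAM10, its relative ADAM17 and reported substrates held 19 genes, all tested. Of these, 7 rose and 4 fell, beside 18.4% and 15.2% of all genes, with a median log2 fold change of 0.16. CD44 (0.80), a hyaluronan receptor, NOTCH2 (0.75), CDH1 (0.62), which encodes E-cadherin, and APP (0.37), the amyloid precursor, rose. On the same list CDH3 (−0.67), which encodes P-cadherin, and NOTCH1 (−0.63, and −0.48 without siDNp63 replicate 1), another receptor cut by ADAM10, fell.

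Tetraspanin partners at the cell surface moved in both directions. Of 26 genes on a list of integrins, immunoglobulin superfamily partners and other reported partners, 24 were tested. Of these, 12 rose and 3 fell, beside 18.4% and 15.2% of all genes, with a median log2 fold change of 0.13. PTGFRN, a direct partner of CD9 and CD81, fell, with 112.9 ± 0.840 TPM in siDNp63 and 177.1 ± 3.24 TPM in siCtrl (log2 fold change −0.64 ± 0.03 SE, edgeR adjusted p = 9.50e-06). IGSF8, the other partner of this kind, had 14.4 ± 3.29 TPM in siDNp63 and 14.4 ± 0.630 TPM in siCtrl (log2 fold change 0.02, edgeR adjusted p = 0.918). Of the CD151 partners, ITGB4, the β4 integrin of hemidesmosomes, fell (−0.83, and −0.63 without siDNp63 replicate 1), with 81.9, 133.8 and 148.6 TPM in siDNp63 replicates 1, 2 and 3, against 219.4, 222.5 and 219.4 TPM in siCtrl replicates 1, 2 and 3. The integrin gene ITGA3 did not pass the test (−0.12, edgeR adjusted p = 0.313), whereas ITGA6 (0.16, edgeR adjusted p = 0.0273) and ITGB1 (0.28, edgeR adjusted p = 0.00263) rose. Of the other integrin genes on the list, ITGA2 (0.32) and ITGB5 (0.61) rose, and ITGAV and ITGA5 did not pass. EPCAM (0.60), CLDN1 (1.11), a claudin, and the growth factor receptor gene MET (1.03) rose, and the receptor gene EGFR fell (−0.77).

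TSPAN31 and TSPAN7 fell beside CD82. TSPAN31, also named SAS and found amplified together with CDK4 in sarcomas, had 763, 752 and 731 normalized counts in siDNp63 replicates 1, 2 and 3, against 1407, 1179 and 1201 in siCtrl replicates 1, 2 and 3. The groups did not overlap, and the spread within siDNp63 was small (log2 fold change −0.76 ± 0.08 SE, edgeR adjusted p = 2.52e-04). Its exons share 1369 of 5251 bases with CDK4 on the opposite strand. As the quantification was run with default options, reads from the 2 genes cannot be told apart by strand there. CDK4 itself had 15676 ± 647 normalized counts in siDNp63 and 15899 ± 340 in siCtrl (SD, n = 3 each; log2 fold change −0.02, edgeR adjusted p = 0.747). AGAP2, which shares 189 exon bases with TSPAN31 on that strand, had 123.3 ± 29.7 normalized counts in siDNp63 and 177.5 ± 22.2 in siCtrl (log2 fold change −0.52, edgeR adjusted p = 0.0686). With implied transcript lengths in the fit, the log2 fold change of TSPAN31 was −1.02 (edgeR adjusted p = 8.13e-04).

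TSPAN7, an X-linked gene known for its role at synapses, had 604, 620 and 560 normalized counts in siDNp63 replicates 1, 2 and 3, against 890, 900 and 882 in siCtrl replicates 1, 2 and 3. Every siDNp63 library was lower (log2 fold change −0.58 ± 0.06 SE, edgeR adjusted p = 3.55e-04). TSPAN7 shares 676 of its 2938 exon bases with a gene on the same strand, ENSG00000250349, which had 31 counts summed over the siDNp63 libraries and 10 over the siCtrl libraries, so reads may have been divided between them. TSPAN6, also on the X chromosome, went the other way by a small fold, with 3146 ± 36.1 normalized counts in siDNp63 and 2608 ± 92.4 in siCtrl (log2 fold change 0.27, edgeR adjusted p = 0.00149), a call that ended on the log2(TPM + 1) scale (limma adjusted p = 0.0890).

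TSPAN18 and TSPAN9 were lower with less certainty. TSPAN18, which acts on calcium channels in endothelium, had 10121, 11332 and 10556 normalized counts in siDNp63 replicates 1, 2 and 3, against 12236, 12292 and 11874 in siCtrl replicates 1, 2 and 3 (log2 fold change −0.19 ± 0.05 SE, edgeR adjusted p = 0.0198). The groups did not overlap, and the call ended without siDNp63 replicate 3 (edgeR adjusted p = 0.0700) and without siCtrl replicate 1, 2 or 3 (edgeR adjusted p = 0.0770, 0.0876 and 0.0610), at log2 fold changes of −0.18, −0.18, −0.18 and −0.20. TSPAN9, a platelet tetraspanin, had 225, 321 and 331 normalized counts in siDNp63 replicates 1, 2 and 3, against 436, 450.3 and 404 in siCtrl replicates 1, 2 and 3 (log2 fold change −0.55 ± 0.15 SE, edgeR adjusted p = 0.0217). In TPM the gap of TSPAN9 was smaller, with 6.91, 6.60 and 5.96 in siDNp63 replicates 1, 2 and 3, against 8.12, 7.58 and 7.21 in siCtrl replicates 1, 2 and 3. Its implied transcript length in siDNp63 replicates 1, 2 and 3 was 0.548, 0.805 and 0.951 of the siCtrl mean, and with these lengths in the fit its log2 fold change was −0.18 (edgeR adjusted p = 0.290). Its call also ended without siCtrl replicate 1, 2 or 3, at log2 fold changes of −0.55, −0.52 and −0.60 (edgeR adjusted p = 0.0812, 0.0882 and 0.0600). Without siDNp63 replicate 1, the lowest library, the log2 fold change was −0.40 (edgeR adjusted p = 0.00755).

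The leukocyte tetraspanins were low. CD37, a tetraspanin of B cells, had 25.6, 61.6 and 75.3 normalized counts in siDNp63 replicates 1, 2 and 3, against 145, 128 and 136 in siCtrl replicates 1, 2 and 3 (log2 fold change −1.31 ± 0.32 SE, edgeR adjusted p = 0.0157). The groups did not overlap, but the siDNp63 libraries differed widely among themselves, and without siDNp63 replicate 1 the log2 fold change was −0.99. The call ended without siCtrl replicate 1 (log2 fold change −1.27, edgeR adjusted p = 0.0643) and without siCtrl replicate 3 (−1.31, edgeR adjusted p = 0.0587). CD37 shares 319 of its 4161 exon bases with TEAD2 on the opposite strand, a gene with 4942 ± 127 normalized counts in siDNp63 and 4535 ± 29.3 in siCtrl, so CD37 reads there cannot be told apart from TEAD2 reads. Of 7 leukocyte markers tested, 3 fell and none rose, beside 15.2% and 18.4% of all genes. LCP1, an actin-bundling protein of leukocytes, had a log2 fold change of −2.88 (edgeR adjusted p = 0.00102), with 0.0552 ± 0.0305 TPM in siDNp63 and 0.459 ± 0.0409 TPM in siCtrl. Its means were 3.44 and 27.6 normalized counts, near the floor, and it passed the filter through siCtrl alone. CD14, a monocyte receptor, had a log2 fold change of −1.26 (edgeR adjusted p = 0.0329) and CD8A, of cytotoxic T cells, of −0.95 (edgeR adjusted p = 0.0165), each at under 4 TPM in both groups. The call of CD14 ended without siDNp63 replicate 3 or any 1 siCtrl library (edgeR adjusted p = 0.0611 to 0.114), and that of CD8A without siDNp63 replicate 3, siCtrl replicate 2 or siCtrl replicate 3 (edgeR adjusted p = 0.0538 to 0.0699). The sum of the 11 markers was carried by CD68, a lysosomal protein of macrophages, with 8.14 ± 0.440 TPM in siDNp63 and 8.32 ± 1.35 TPM in siCtrl. PTPRC, the marker common to leukocytes, had 0.270 ± 0.0955 TPM in siDNp63 and 0.267 ± 0.0285 TPM in siCtrl and was too low to test. The part of these markers in the CD37 value was not tested. CD53, found on most leukocytes, had 8 counts in siDNp63 and 12 in siCtrl, and TSPAN32, a gene of blood cells, had 2 and 0, and neither was tested.

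The remaining members differed little or were too low to test. TSPAN3 had 12458 ± 259 normalized counts in siDNp63 and 11743 ± 233 in siCtrl (SD, n = 3 each), values that did not overlap but did not pass the test (log2 fold change 0.09, edgeR adjusted p = 0.108). TSPAN13 had 6459 ± 272 normalized counts in siDNp63 and 6666 ± 140 in siCtrl (log2 fold change −0.05, edgeR adjusted p = 0.457). TSPAN12, the partner of the receptor FZD4 in Norrin signalling of the retina, had a log2 fold change of 0.06 (edgeR adjusted p = 0.581), and the ligand gene NDP was under 0.01 TPM in both groups while FZD4 rose (0.33). Of 6 tested genes of Norrin signalling 3 rose and none fell, beside 18.4% and 15.2% of all genes. The calls of all 3 (FZD4, LRP6 and CTNNB1) ended on the log2(TPM + 1) scale. LRP6 kept about its size there (0.28, against 0.30 in the edgeR fit, limma adjusted p = 0.0578), whereas FZD4 and CTNNB1 were smaller (0.20 and 0.09, limma adjusted p = 0.175 and 0.174). TSPAN4, a marker of migrasomes, had 61.9 ± 13.7 normalized counts in siDNp63 and 66.0 ± 16.7 in siCtrl, and TSPAN11 had 11.7 ± 2.83 and 11.9 ± 1.70. TSPAN19 had 23 counts summed over the siDNp63 libraries and 27 over the siCtrl libraries, and TSPAN16 had 1 and 3. TSPAN16 and TSPAN32 had the same expected counts in every library as some other gene, at 3 counts or fewer in a group.

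Several members lie close together in the genome. Chromosomes 11 and 12 hold 7 members each. On chromosome 11, CD151 (832887 to 839831) and TSPAN4 (842812 to 867116) lie close together, neither of which passed the test, and CD82 (44564427 to 44620358) and TSPAN18 (44726465 to 44932423) are near each other and both fell. On chromosome 12, CD9, CD63 and TSPAN8 rose and TSPAN9 and TSPAN31 fell, so that TSPAN9 (3077355 to 3286564) and CD9 (6199715 to 6238271), on the same arm, moved in opposite directions. All positions are those of GRCh38, the build named in the submitters' processing notes.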

How the data were processed

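Poly(A) RNA of 6 SCC90 libraries was prepared by a stranded protocol and sequenced as single reads. Per the submitters' processing notes, bcl2fastq 2.17.1.14, kallisto 0.46.2 and hg38 were used, while for the annotation no release was named in the sources used. Expected counts were deposited by the authors per Ensembl gene, estimated by kallisto without scaling, and the deposited TPM values were scaled by the authors for transcript length and library. All 12 columns were used, with groups from the sample titles. Expected counts were rounded, filtered (edgeR 4.0.16 filterByExpr, minimum count 10), scaled by TMM (the trimmed mean of M values) and tested by the quasi-likelihood method of edgeR with group as the only term. The procedure was also run on simulated counts. These held no outlying library such as siDNp63 replicate 1, so they do not give the error rate in these data. A few counts carry a large counting error, while high counts are limited by the spread between libraries. Names and positions came from GENCODE annotation of GRCh38, which matched 35538 of 40488 genes.

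The members and lists were chosen with earlier results of these data known. Values per library are given for called members with an absolute log2 fold change over 0.5, for uroplakins and for the members with the highest TPM where at least 10 counts were present, for others by choice after their values were seen, and from each other list mainly the genes with the smallest p. Genes beyond these were named after their values were seen. The implied transcript length is counts divided by TPM, scaled between libraries by the median gene. Alternatives were DESeq2 1.42.0, limma-voom (limma 3.58.1), other scalings and filters, transcript lengths as an offset, limma on log2(TPM + 1), a replicate block, p under 0.005 and leaving out each library. Spearman's correlations with GC content and the search of start sites were added after seeing the data. Some items are not reported here.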

Additional observations from a re-analysis of the deposited data

How the results depend on the processing

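Of the 15 members called, 10 kept their call and direction under all 16 alternatives that could be fitted for them (7 that rose and 3 that fell), and no called member changed direction. TSPAN8 could not be fitted with at least 10 counts in every library. The calls of CD37, TSPAN2, TSPAN6, TSPAN9 and TSPAN18 ended under 1 or more alternatives, and those of CD81, CD151 and TSPAN13 appeared under 1 each, TSPAN13 with library size scaling (log2 fold change −0.13), which moved the median of all genes to −0.11. The number of members that rose was 8 to 9 and of those that fell 4 to 7 under the alternatives that used all libraries. With 1 library left out, 9 to 11 rose and 3 to 6 fell, and the count of 3 came without siCtrl replicate 1 and without siCtrl replicate 3. Over all genes, library size scaling gave 4117 lower and 2330 higher genes, and limma on log2(TPM + 1) gave 1668 higher genes and, past both thresholds, 148 higher and 113 lower, and for these changes the cause was not tested. Called genes were higher in 54.7% of cases with TMM, in 36.1% with library size alone, in 44.4% with upper quartile scaling and in 41.5% on the TPM scale, and called members in 60.0%, 56.2%, 60.0% and 61.5%. With the replicate block 9 members rose and 6 fell, as without it, and 2777 genes were higher and 2175 lower. Same-numbered libraries did not deviate together (correlations of −0.01, 0.02 and 0.03), so the numbers were not taken as pairs. Members under about 10 counts in every library, 7 of the 34, are limited by depth.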
